A study of Mus musculus with 12 samples.

Results

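Maoa and Maob encode the monoamine oxidases, and 3 probe sets carried their symbols among the 45101 of the array table: 1428667_at and 1442676_at for Maoa, and 1434354_at for Maob. They are 2 of the 18194 genes annotated on the table. The pair was chosen on signals of these same 12 arrays in all 4 groups, so their levels and differences are given as a description, with standard errors and the overlap of groups but with no p-value. The RNA came from whole excised hearts of CD1 mice, of which DN-MCU mice express a dominant negative MCU construct (MCU is the channel protein of the mitochondrial calcium uniporter), and WT mice are their wild-type littermates. The groups were DN-MCU adults and WT adults, 42 days old and all labelled male, and DN-MCU neonates and WT neonates, 1 day old and with no sex labelled, with 3 arrays each. The labels do not name the promoter that drives the construct, the number of transgenic lines or any pooling of neonatal hearts. They call the replicates biological without naming the animals.

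Monoamine oxidases A and B are flavoproteins of the outer mitochondrial membrane that remove the amine group from noradrenaline, adrenaline, dopamine, serotonin and dietary amines. Each turn of the reaction uses oxygen and yields an aldehyde, ammonia and hydrogen peroxide, so the enzymes depend on aldehyde dehydrogenases and peroxidases to clear what they make. MAO-A prefers serotonin and noradrenaline and MAO-B prefers phenylethylamine, and in the heart both are studied as sources of mitochondrial peroxide. Their genes lie side by side on the X chromosome in the order of the RefSeq gene table (GRCm38.p6), where the genes from Maoa onwards read Maoa, Maob, Ndp, Efhc2 and Fundc1.

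The start of Maoa is shown because the transcription factors and the glucocorticoid-induced genes described further on are reported to act on, or to share a regulator with, its promoter. The RefSeq promoter table (GRCm38.p6) held 1 of the 2 genes, Maoa, at chrX:16619448-16619747 on the plus strand, from 250 bases before the annotated start to 50 bases after it. Capitals mark GC boxes, the motif of the Sp family of zinc finger factors, spelled GGGCGG on one strand and CCGCCC on the other.
Maoa promoter: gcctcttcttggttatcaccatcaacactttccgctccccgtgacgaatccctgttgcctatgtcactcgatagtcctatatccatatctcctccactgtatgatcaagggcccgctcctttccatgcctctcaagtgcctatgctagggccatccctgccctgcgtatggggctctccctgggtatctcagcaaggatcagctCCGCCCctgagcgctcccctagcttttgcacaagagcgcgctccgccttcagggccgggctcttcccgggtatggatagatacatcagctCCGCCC
The window held 2 GC boxes, which begin at -46 and 45 bases from the start and do not overlap each other. A GC box was in 35.7% of the 32851 promoters of the table. The CACCC element of the Kruppel-like factors had 0 matches on either strand and was in 57.5% of all promoters, and the C/EBP-ATF core TGATGNAA had 0 and was in 3.97%. The FOXO element GTAAACAA had 0 matches (1.23% of all promoters), as did the glucocorticoid response element (0.475%). These counts say only which letters stand in this window.

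All values are log2 signals as deposited, so a difference of 1 is a doubling, and levels are compared between groups within a probe set only. The 12 arrays had median signals between 3.25 and 3.46. One adult DN-MCU array, replicate 3, stood apart from the others on the second principal component (121.4, against -50.9 to 24.4 on the other arrays) and correlated least with its own group, with a mean r of 0.931. Adult arrays scattered more than neonatal ones, with a median SD of 0.40 in DN-MCU adults and 0.226 in WT adults against 0.141 in DN-MCU neonates and 0.132 in WT neonates. The Mcu probe set 1442031_at was at 8.85, 9.64 and 10.41 in DN-MCU adults and at 8.73, 8.44 and 9.28 in DN-MCU neonates, above every WT value, the highest of which was 4.55. The other Mcu probe set, 1453166_at, overlapped between the genotypes at both ages. It ran from 7.39 to 8.14 in DN-MCU adults and from 7.41 to 7.84 in WT adults. In neonates it ran from 7.91 to 8.03 in DN-MCU hearts and from 7.70 to 8.18 in WT hearts. The 12 cardiomyocyte markers were above the detection level of 3.35 on all 12 arrays, the lowest being Myh7 at 10.41.

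In adult hearts the signals of the 2 genes differed in opposite directions: Maoa was higher and Maob lower in DN-MCU adults than in WT adults. Maoa probe set 1428667_at read 10.98, 9.68 and 8.92 in DN-MCU adults, against 7.08, 7.02 and 6.90 in WT adults. The lowest DN-MCU adult was above the highest WT adult by 1.84, and the DN-MCU adults spread over a far wider range than the WT adults, with the array that stood apart the lowest of the 3. The group means were 9.86 ± 1.04 in DN-MCU adults and 7.001 ± 0.0898 in WT adults (SD, n = 3 each), a log2 difference of 2.86 with a standard error (SE) of 0.394, or 7.27-fold. Of the 24176 probe sets tested, 60 had a larger positive difference.

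The dimmer Maoa probe set, 1442676_at, ordered the adult DN-MCU arrays in the same way. It read 8.74, 7.28 and 5.69 in DN-MCU adults, against 4.81, 5.40 and 4.63 in WT adults. The groups did not overlap, but the gap between them was 0.294, set by DN-MCU adult 3. The means were 7.24 ± 1.52 in DN-MCU adults and 4.95 ± 0.402 in WT adults (SD, n = 3 each), a difference of 2.29 (SE 0.579), or 4.88-fold. Over the 6 adult arrays the 2 Maoa probe sets correlated at r = 0.953, across groups that do not overlap. The files do not say where in the transcript each of them lies.

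Maob probe set 1434354_at read 8.27, 9.39 and 9.04 in DN-MCU adults, against 10.85, 10.79 and 10.95 in WT adults. Every DN-MCU adult was below every WT adult, by at least 1.39, and the WT adults again lay within a narrow range. The array with the highest Maoa signals in the DN-MCU group, replicate 1, had the lowest Maob signal. The means were 8.90 ± 0.573 in DN-MCU adults and 10.86 ± 0.0851 in WT adults (SD, n = 3 each), a difference of -1.96 (SE 0.244), or 3.9-fold lower in DN-MCU adults. Among all probe sets tested, 70 had a larger negative difference.

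The 3 probe sets thus had non-overlapping groups in adults, and 17.2% of all probe sets tested did as well, 8.7% with DN-MCU adults higher and 8.46% with DN-MCU adults lower. That share is background only, because the adult contrast was among the values used to choose the genes. The SE of these differences depends on which arrays set the spread: with the adult arrays fitted alone it was 0.51 for Maoa 1428667_at, 0.751 for Maoa 1442676_at and 0.306 for Maob. Without DN-MCU adult 3, the array that stood apart, the differences were 3.33 and 3.06 for the 2 Maoa probe sets in that order and -2.03 for Maob. Without DN-MCU adult 1 they were 2.30, 1.54 and -1.65. Replicate 1 had the largest difference from WT of the 3 adult DN-MCU arrays on every probe set.

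**Figure D1:**
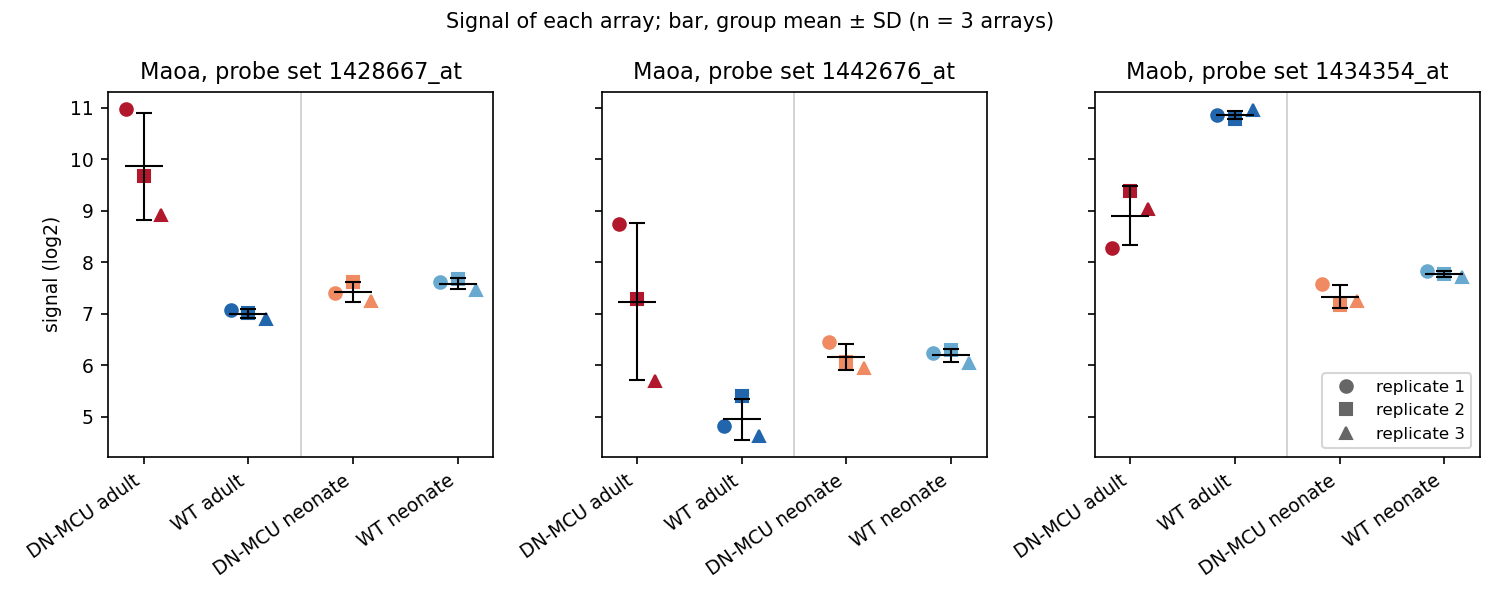
Log2 signal (y axis) of the 2 Maoa probe sets and the Maob probe set on each of the 12 arrays (points), by group (x axis), with bars for the group mean ± SD (n = 3 arrays each). DN-MCU adults stand above WT adults for Maoa and below them for Maob, and the neonatal groups lie close together.

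In neonatal hearts the Maoa signals of the 2 genotypes overlapped. Probe set 1428667_at read 7.40, 7.62 and 7.25 in DN-MCU neonates, against 7.61, 7.68 and 7.46 in WT neonates, a difference of -0.16 (SE 0.394). Probe set 1442676_at read 6.45, 6.07 and 5.96 in DN-MCU neonates, against 6.23, 6.30 and 6.05 in WT neonates, a difference of -0.04 (SE 0.579). The sign of the second value turned when single neonatal arrays were left out, so it has no settled direction. The means of 1428667_at were 7.42 ± 0.186 in DN-MCU neonates and 7.59 ± 0.111 in WT neonates, and those of 1442676_at were 6.16 ± 0.258 and 6.19 ± 0.129 in the same order (SD, n = 3 each).

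Maob was lower in all 3 DN-MCU neonates than in any WT neonate, by a smaller amount than in adults. It read 7.58, 7.17 and 7.25 in DN-MCU neonates, against 7.84, 7.77 and 7.71 in WT neonates, with a gap of 0.126 between the groups. The means were 7.33 ± 0.220 in DN-MCU neonates and 7.77 ± 0.0646 in WT neonates (SD, n = 3 each), a difference of -0.44 (SE 0.244, or 0.125 with the neonatal arrays fitted alone), or 1.36-fold lower in DN-MCU neonates. Non-overlapping groups were found for 12.6% of all probe sets in neonates, 5.13% with DN-MCU neonates lower, and 714 probe sets had a larger negative difference than Maob.

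The neonatal hearts were not all of 1 sex by their Xist signal, the RNA that coats the inactive X chromosome in females. Xist was above the detection level in DN-MCU neonates 2 and 3 and in WT neonate 3, and between 2.74 and 2.91 on the other 9 arrays. Both genes are X-linked, so the signals were also set side by side within each class. Among Xist-low neonates Maob was 7.58 in the DN-MCU heart and 7.84 and 7.77 in the WT hearts, and among Xist-high neonates it was 7.17 and 7.25 in the DN-MCU hearts and 7.71 in the WT heart. Maoa was mixed within the classes. Among Xist-low neonates 1428667_at was 7.40 in the DN-MCU heart and 7.61 and 7.68 in the WT hearts, while 1442676_at was 6.45 in the DN-MCU heart and 6.23 and 6.30 in the WT hearts. Among Xist-high neonates 1428667_at was 7.62 and 7.25 in the DN-MCU hearts and 7.46 in the WT heart, and 1442676_at was 6.07 and 5.96 in the DN-MCU hearts and 6.05 in the WT heart. The DN-MCU values of Maob were the lower ones in each class, with too few arrays for a spread within a class.

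The difference between DN-MCU and WT hearts was larger in adults than in neonates for all 3 probe sets. The adult difference minus the neonatal difference was 3.03 (SE 0.557) for Maoa 1428667_at, 2.32 (SE 0.818) for Maoa 1442676_at and -1.52 (SE 0.345) for Maob. Larger positive values were found for 44 and 94 probe sets than for the 2 Maoa probe sets in that order, and larger negative values than for Maob for 174. Leaving out DN-MCU adult 1 gave 2.46, 1.57 and -1.21, the values nearest to 0 of those obtained by leaving out any 1 array.

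**Figure D2:**
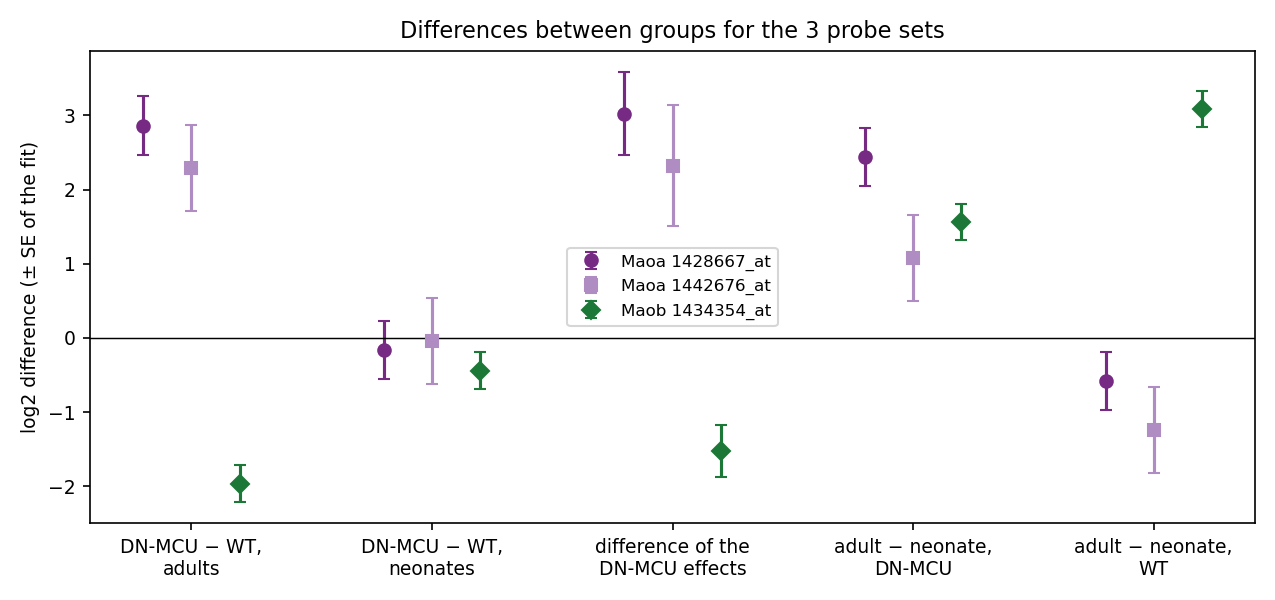
Log2 difference (y axis) for each of the 3 probe sets (points, with bars for the standard error of the fit) in 5 contrasts (x axis): DN-MCU against WT within adults and within neonates, the adult minus the neonatal effect, and adults against neonates in DN-MCU and in WT hearts. For DN-MCU against WT the adult points lie on the positive side for Maoa and on the negative side for Maob, while the neonatal points lie within 0.5 of 0.

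With age, WT hearts had less Maoa and more Maob signal. Maob averaged 10.86 in WT adults and 7.77 in WT neonates, a difference of 3.09 (SE 0.244) or 8.52-fold, and the groups were 2.95 apart. Maoa 1428667_at averaged 7.001 in WT adults and 7.59 in WT neonates, a difference of -0.58 (SE 0.394) or 1.5-fold, and Maoa 1442676_at averaged 4.95 and 6.19 in the same order, a difference of -1.24 (SE 0.579) or 2.37-fold. Neither Maoa probe set had overlapping WT groups, with gaps of 0.383 and 0.648. Age separates the groups of 65.5% of all probe sets in WT hearts (29.2% with adults higher, 36.3% with adults lower), so non-overlap by itself is common there.

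DN-MCU hearts had higher signals as adults than as neonates on Maoa 1428667_at and on Maob. Maoa 1428667_at averaged 9.86 in DN-MCU adults and 7.42 in DN-MCU neonates, a difference of 2.44 (SE 0.394) or 5.43-fold. Maob averaged 8.90 in DN-MCU adults and 7.33 in DN-MCU neonates, a difference of 1.57 (SE 0.244) or 2.96-fold. Both pairs of groups were apart, by 1.3 for Maoa and 0.688 for Maob, as were those of 57.4% of all probe sets (25.6% with adults higher). For Maoa 1442676_at the DN-MCU ages overlapped, with a difference of 1.08 (SE 0.579) that was 0.33 without DN-MCU adult 1 and 1.85 without DN-MCU adult 3.

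Ordered by level, Maob was highest in WT adults, followed by DN-MCU adults, WT neonates and DN-MCU neonates, and no 2 neighbours in this order overlapped. Maoa 1428667_at was highest in DN-MCU adults, followed by WT neonates, DN-MCU neonates and WT adults. The 2 neonatal groups overlapped and the other neighbours did not. For Maoa 1442676_at the order was the same, and DN-MCU adults, WT neonates and DN-MCU neonates all overlapped, leaving WT adults apart below them.

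**Figure D3:**
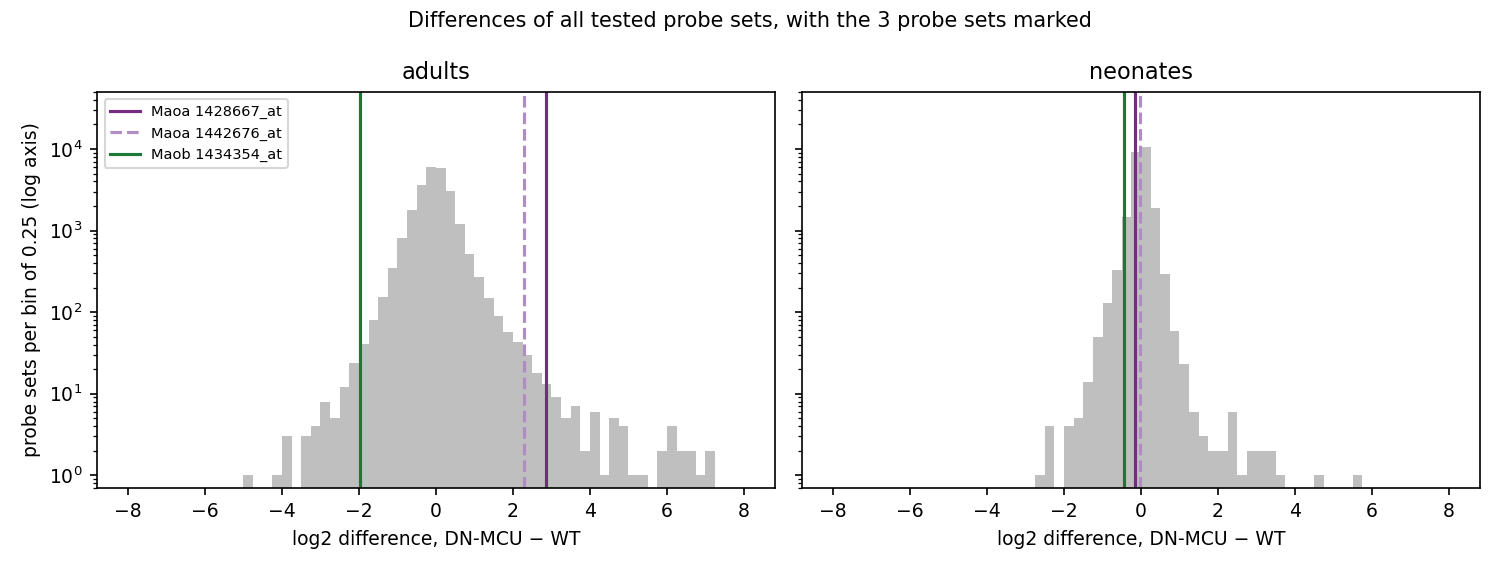
Histogram of the log2 differences between DN-MCU and WT hearts for the 24176 probe sets tested (x axis; y axis, number of probe sets per bin on a log scale), in adults and in neonates, with lines at Maoa and Maob. In adults the lines fall in the outer tails, with 60 probe sets beyond Maoa 1428667_at and 70 beyond Maob on their sides.

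Marker genes of 14 cell types, cardiomyocytes included, were summed on the linear scale on each array, and 1 sum did not overlap between DN-MCU and WT adults. The smooth muscle and pericyte sum was 43810 to 56340 in DN-MCU adults and 36420 to 43670 in WT adults, with 4 of 10 markers higher and Acta2, smooth muscle actin, 1.69 higher (SE 0.205, adjusted p = 0.00115 with limma, or 0.0776 with adults alone). The adipocyte sum ranged from 7211 to 32930 in DN-MCU adults and from 20210 to 30430 in WT adults, and the cardiomyocyte sums overlapped, at 422100 to 451100 in DN-MCU adults and 430300 to 473500 in WT adults. In neonates 4 sums did not overlap. The epicardial and mesothelial sum was 2298 to 2527 in DN-MCU neonates and 3005 to 4500 in WT neonates (9 of 10 markers lower), and the erythroid sum was 430.3 to 673.1 in DN-MCU neonates and 731.3 to 1619 in WT neonates (5 of the 5 markers on the array lower, Hba-a1 and Rhag under the detection level). The adipocyte sum was 27330 to 27980 in DN-MCU neonates and 24560 to 26540 in WT neonates, with Adipoq, Retn, Lep, Cidec and Ucp1 under the detection level. Almost all of that sum was 1 gene, Fabp4, at 14.66 to 14.71 in DN-MCU neonates and 14.52 to 14.63 in WT neonates. Of the 8 adipocyte markers measured, 4 were higher and 4 lower. The skeletal muscle sum was 72.44 to 73.88 in DN-MCU neonates and 75.07 to 90.18 in WT neonates, with 6 of 8 markers under the detection level. In whole hearts, fewer cells of a type and less RNA per cell cannot be told apart, and the part of these cell types in the Maoa and Maob signals was not tested.

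The genes around the 2 enzymes were read from 11 lists of 208 genes, of which 134 had a probe set above the detection filter. A gene was called at an adjusted p under 0.05 with limma, adjusted over all 24176 probe sets. In adults 9 of the 134 genes were higher and 5 lower in DN-MCU hearts, or 10.4%, with a median difference of -0.0206, against 4.77% of all probe sets called (2.82% higher, 1.95% lower) and a median of -0.0232. With 1 probe set a gene, as in the lists, 404 of 11807 genes were called higher and 199 lower, with a median of 0.00227. The lists were chosen with earlier results of these data known, so the larger share in them is a description only. With the adult arrays fitted alone, 1 of the 14, Aldh18a1, passed. Hnmt, Gsr, Marchf5 and Mt2 were the least settled of the 14, since each lost its call in 14 or 15 of 21 alternatives, among them the removal of WT adult 2, WT adult 3, DN-MCU adult 1 or any 1 neonatal array (highest adjusted p 0.321, 0.327, 0.313 and 0.231 in that order). Tspo lost its call without WT adult 2 or WT adult 3. In neonates 0 genes were called by limma, against 0.0165% of all probe sets. An unadjusted p under 0.05 was found there for 4 of the 134 genes and for 578 of the 24176 probe sets, or 2.39%.

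Of 9 tested genes that make and store amines, 2 were lower and none higher in DN-MCU adults, against 4.77% of all probe sets called. Dbh, the enzyme that turns dopamine into noradrenaline, averaged 4.98 in DN-MCU adults and 6.62 in WT adults (difference -1.65, SE 0.227, adjusted p = 0.00242, or 0.0668 with adults alone). Ddc, which makes dopamine and serotonin from their amino acid precursors, averaged 5.26 in DN-MCU adults and 7.10 in WT adults (difference -1.84, SE 0.320, adjusted p = 0.0083, or 0.12 with adults alone). The other tested probe set of each gene gave the same direction, at -1.73 for Dbh and -1.25 for Ddc. Slc18a2, the vesicular monoamine transporter, differed by 0.17 (SE 0.316, adjusted p = 0.844). Among the adult arrays it was above the detection level only on DN-MCU adult 1, at 3.91, and it passed the filter through the neonates. Its adult comparison was thus made near the floor and cannot decide whether the gene differed. Tyrosine hydroxylase (Th) and the noradrenaline transporter (Slc6a2), which define sympathetic neurons, were below the detection filter. The summed signal of 12 sympathetic neuron markers, 11 of them on the array, was 210.9 to 234.8 in DN-MCU adults and 231.0 to 281.5 in WT adults. Of these markers 6 were higher and 5 lower, with 1 called in each direction by limma. Dbh is itself 1 of the markers, so the sum is not separate from the Dbh difference and cannot be set beside it. Uchl1, another marker, went the other way, at 5.83 in DN-MCU adults and 3.48 in WT adults. The part of sympathetic neurons in the Dbh difference was not tested.

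Among other routes of amine breakdown, 1 of 8 tested genes was higher and 2 were lower in adult DN-MCU hearts. The share called over all probe sets was 4.77%. Comtd1 averaged 9.07 in DN-MCU adults and 6.31 in WT adults (difference 2.76, SE 0.314, adjusted p = 0.000759, or 0.0658 with adults alone). Hnmt, which methylates histamine, averaged 5.93 in DN-MCU adults and 8.26 in WT adults (difference -2.32, SE 0.552, adjusted p = 0.0387, or 0.321 with adults alone). Rnls, the flavoprotein renalase, averaged 8.12 in DN-MCU adults and 9.02 in WT adults (difference -0.89, SE 0.175, adjusted p = 0.0163, or 0.239 with adults alone). With the neonatal replicate numbers as a block, the adjusted p was 0.101 for Hnmt and 0.057 for Rnls. None of the 5 tested genes of the other flavin-dependent amine oxidases was called, nor any of the 4 of riboflavin uptake and FAD synthesis, with medians of 0.0819 and -0.0539 in that order. Of the 32 receptors for amines 23 were on the array and 2 passed the detection filter, Adra1b and Htr7, neither of which was called. Adra1b passed through the neonates and was under the detection level on every adult array, at 1.61 to 2.82. Its adult comparison was thus made at the floor and cannot decide whether it differed. Slc22a3 was not analysed here.

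Among the 23 tested genes of aldehyde oxidation and reduction, 2 were higher and 1 was lower in DN-MCU adults, against 4.77% of all probe sets called. The list is not limited to enzymes that take up the aldehyde of the monoamine oxidase reaction. The 2 that were higher are known for other substrates. Aldh18a1, the first enzyme of proline synthesis from glutamate, averaged 10.61 in DN-MCU adults and 7.59 in WT adults (difference 3.02, SE 0.310, adjusted p = 0.000412, or 0.0376 with adults alone). Aldh1l2, a mitochondrial enzyme of folate metabolism, averaged 8.26 in DN-MCU adults and 5.06 in WT adults (difference 3.199, SE 0.575, adjusted p = 0.00995 with limma, or 0.121 with adults alone). Its difference was not confined to adults. It averaged 8.58 in DN-MCU neonates and 6.47 in WT neonates (difference 2.12, SE 0.575, unadjusted p = 0.00388 with limma), without a call after adjustment. Aldh5a1, which oxidises succinic semialdehyde from GABA breakdown, averaged 6.72 in DN-MCU adults and 7.68 in WT adults (difference -0.96, SE 0.154, adjusted p = 0.00531, or 0.153 with adults alone). Aldh2, the mitochondrial enzyme best known for clearing amine-derived aldehydes, averaged 11.93 in DN-MCU adults and 12.21 in WT adults (difference -0.29, SE 0.135, adjusted p = 0.295). The list's median was -0.0421.

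Of the 17 tested genes of the hydrogen peroxide list, 2 were higher and none was lower in DN-MCU adults, with a median of 0.378. Over all probe sets 4.77% were called. Most of the list removes peroxide, but it also holds the superoxide dismutases Sod1 and Sod2, which make it. Srxn1, which restores over-oxidised peroxiredoxins, averaged 8.76 in DN-MCU adults and 7.55 in WT adults (difference 1.21, SE 0.186, adjusted p = 0.00424, or 0.0938 with adults alone), and its other probe set differed by 2.12. Gsr, glutathione reductase, averaged 7.49 in DN-MCU adults and 6.87 in WT adults (difference 0.62, SE 0.154, adjusted p = 0.0466). Its adjusted p was 0.327 with adults alone and 0.118 with the neonatal block, and its other probe set differed by 0.308 (adjusted p = 0.694). Catalase (Cat), at 0.02 (SE 0.198), and the mitochondrial peroxiredoxin Prdx3, at -0.16 (SE 0.119), were not called.

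The enzymes' own compartment, the outer mitochondrial membrane, had 2 of 32 tested genes higher and none lower in DN-MCU adults, with a median of 0.0167. That is near the background, in which 4.77% of all probe sets were called. An unadjusted p under 0.05 with limma was found for 18.8% of the list and for 18.2% of all probe sets. Tspo, the translocator protein, averaged 10.63 in DN-MCU adults and 9.45 in WT adults (difference 1.18, SE 0.232, adjusted p = 0.0167, or 0.206 with adults alone). Marchf5, a mitochondrial ubiquitin ligase, averaged 11.76 in DN-MCU adults and 11.26 in WT adults (difference 0.50, SE 0.123, adjusted p = 0.0437, or 0.313 with adults alone and 0.102 with the neonatal block), while another of its probe sets differed by -0.659.

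Transcription factors reported to act on the Maoa promoter, in work that is largely on human cells, had 0 of 11 tested genes called by limma in adults and 0 at an unadjusted p under 0.05, with a median of -0.197. Over all probe sets 4.77% were called and 18.2% had an unadjusted p under 0.05, so 0 among so few genes says little. Klf11, a Kruppel-like factor, averaged 6.97 in DN-MCU adults and 6.94 in WT adults (difference 0.03, SE 0.234), and the repressor Cdca7l averaged 5.27 in DN-MCU adults and 5.24 in WT adults (difference 0.04, SE 0.178). The glucocorticoid receptor, Nr3c1, differed by -0.72 (SE 0.449, adjusted p = 0.459 with limma). It read 9.65, 9.72 and 7.69 in DN-MCU adults, the last on DN-MCU adult 3, against 9.26, 9.94 and 10.01 in WT adults. Its difference thus rests on the array that stood apart. Sp1, Sp3, Sp4 and Sirt1 were also lowest on that array among the adults, while the remaining tested factors were not. Of 17 glucocorticoid-induced genes 2 were higher and none lower, with a median of 0.0882: Cdkn1a, a cell cycle inhibitor, at 2.74 (SE 0.431, adjusted p = 0.00481, or 0.114 with adults alone), and Mt2, a metallothionein, at 0.94 (SE 0.235, adjusted p = 0.0491, or 0.231 with adults alone and 0.113 with the neonatal block).

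The list of X chromosome neighbours gave 0 calls by limma among 8 tested in DN-MCU adults and 0 at an unadjusted p under 0.05, with a median of -0.115. Beside the 18.2% of all probe sets at that p, 0 among so few genes says little. Of the 8, only Fundc1 is in the order of adjacent genes given above. Ndp and Efhc2, the nearest genes past Maob, were below the detection filter on these arrays. Fundc1, the gene after them, averaged 8.28 in DN-MCU adults and 8.99 in WT adults (difference -0.71, SE 0.338, adjusted p = 0.303 with limma). It read 8.67, 8.86 and 7.30 in DN-MCU adults, lowest on DN-MCU adult 3, against 8.66, 9.16 and 9.15 in WT adults.

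**Figure D4:**
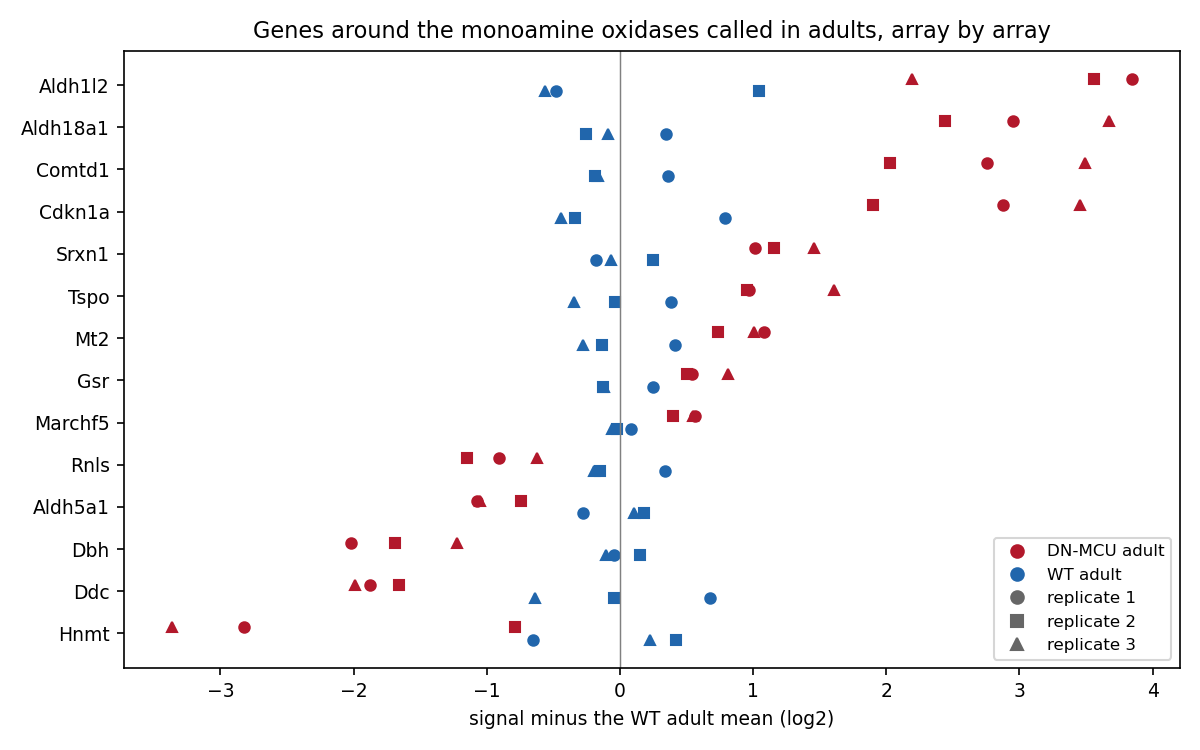
Log2 signal of each adult array minus the mean of the WT adults (x axis), for the genes of the 11 lists that were called in adults (y axis), with DN-MCU adults and WT adults as separate points (3 arrays each, 1 symbol per replicate). Aldh18a1, Aldh1l2 and Comtd1 lie farthest to the right and Hnmt, Ddc and Dbh to the left.

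The DN-MCU effect differed between the ages for 3 of the 134 genes, all more positive in adults, or 2.24%, against 0.786% of all probe sets (0.587% more positive in adults). With 1 probe set a gene, 84 of 11807 genes were more positive in adults and 28 more negative. The choice of the lists limits this comparison as well. Aldh18a1 had an adult effect 2.49 above the neonatal one (SE 0.438, adjusted p = 0.0326) on its brightest probe set, Comtd1 2.46 (SE 0.444, adjusted p = 0.0353) and Srxn1 1.41 (SE 0.263, adjusted p = 0.0403). The other 4 probe sets of Aldh18a1 gave 0.611 to 2.42 and none of them passed (adjusted p of 0.102 to 0.87). With the neonatal block the adjusted p-values of the 3 genes were 0.0797, 0.12 and 0.12 in that order, and none of these calls remained. Without WT adult 2, WT adult 3 or most single neonatal arrays they were lost as well, with adjusted p-values up to 0.108 for Aldh18a1, 0.128 for Comtd1 and 0.182 for Srxn1 over 20 alternatives. For Dbh the difference of effects was -1.48 (SE 0.322, adjusted p = 0.0789), and for Ddc it was -1.88 (SE 0.452, adjusted p = 0.12).

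In WT hearts 37 of the 134 genes were higher and 30 lower in adults than in neonates, or 50%, against 45.1% of all probe sets (20.6% higher, 24.4% lower). With 1 probe set a gene, 2027 of 11807 genes were higher and 3284 lower. Ddc averaged 7.10 in WT adults and 12.01 in WT neonates (difference -4.90, SE 0.320, adjusted p = 9.98e-07), while Dbh averaged 6.62 in WT adults and 5.28 in WT neonates (difference 1.34, SE 0.227, adjusted p = 0.000762). For aldehyde oxidation and reduction 6 of 23 genes were higher and 7 lower. Among them were Aldh2 at 1.88 on its brightest probe set (adjusted p = 1.99e-06 with limma), Aldh1a1, which oxidises retinal, at 3.13, and the mitochondrial Aldh1b1 at -3.23. The other 4 probe sets of Aldh2 gave 0.403 to 2.23, and those at 0.403 and 0.437 did not pass (adjusted p = 0.294 and 0.326). The hydrogen peroxide list had 6 of 17 higher and 5 lower, including Prdx3 at 0.90 and Prdx4, the peroxiredoxin of the endoplasmic reticulum, at -2.10. Sod2, which makes peroxide rather than removing it, was among the higher ones, at 0.701.

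The other lists moved with age in WT hearts as follows, beside 45.1% of all probe sets called (20.6% higher, 24.4% lower). The outer mitochondrial membrane had 10 of 32 genes higher and 5 lower, including Gpam, which starts glycerolipid synthesis, at 2.25, the fusion protein Mfn1 at 1.66 and the liver-type carnitine palmitoyltransferase Cpt1a at -1.64. Glucocorticoid-induced genes had 11 of 17 higher and 2 lower, with a median of 0.971, against -0.0651 over all probe sets, including Zbtb16 at 3.47, Klf15 at 1.99 and Angptl4 at -3.42. Of the factors reported for Maoa, 1 of 11 was higher, Foxo3 at 1.37, and 1 was lower, Klf11, at 6.94 in WT adults and 9.45 in WT neonates (difference -2.51, SE 0.234, adjusted p = 1.26e-05). The X chromosome list, whose tested genes are mostly not adjacent to the pair, had 0 of 8 higher and 3 lower, with Med14, a Mediator subunit, at -2.19 and Bcor, a corepressor, at -1.30. Of the other Med14 probe sets 1 gave -2.83, while those at -0.388 and -0.555 did not pass (adjusted p = 0.116 and 0.104).

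The genes whose pattern was most like that of each enzyme were named by Pearson's r over arrays, as a description. The groups form clusters, so r reflects mainly the group means, and genes chosen for the highest r over so many candidates will have a high one. Over the 12 arrays Maoa 1428667_at was most like Ctsl (r = 0.987), Atp6v1h (0.981), Eprs (0.976), 2900055J20Rik (0.964) and Tchhl1 (0.962). Ctsl, cathepsin L, ran from 13.23 to 14.07 in DN-MCU adults and from 12.65 to 12.69 in WT adults, and from 12.78 to 12.96 in DN-MCU neonates and 12.83 to 13.02 in WT neonates. Over the 6 adult arrays the likeliest were Nt5e (0.997), Phf10 (0.996), Nipsnap3b (0.995), Ccnd2 (0.994) and Atp6v1h (0.994), so Atp6v1h, a subunit of the vacuolar proton pump, was in both sets.

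Maob over the 12 arrays was most like Yipf7 (r = 0.982), Hamp (0.982), Asb5 (0.982), Slc25a11 (0.977) and Ptprm (0.977). Hamp, which encodes the iron hormone hepcidin, ran from 6.52 to 7.88 in DN-MCU adults and from 10.13 to 11.27 in WT adults, and from 3.63 to 4.67 in DN-MCU neonates and 3.73 to 4.70 in WT neonates. Slc25a11, the mitochondrial oxoglutarate carrier, ran from 12.36 to 12.79 in DN-MCU adults and from 13.21 to 13.28 in WT adults. Both had their highest values in WT adults, as Maob did, with the neonates of either genotype below all adults. Over the 6 adult arrays the likeliest were Atp5md (0.998), Tef (0.994), Ginm1 (0.994), Pdzrn3 (0.992) and Bnip3 (0.990), and none of these was in the set over 12 arrays.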

How the data were processed

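Total RNA (500 ng) from 12 whole hearts was labelled as biotinylated cRNA for Affymetrix 3′ arrays, per the labels' protocols. The values are log2 signals deposited by the authors as 1 table, with the log scale inferred from the values. The submitters' processing notes name Partek without a version, and how the arrays were normalized is not stated. Probe sets were named from GEO's platform annotation: 34945 had 1 gene, 932 several and 9160 none, and 64 controls were removed. Of these, 34754 had a gene ID in the RefSeq gene table, and 0 symbols changed.

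A probe set was tested if the third highest of its 12 values exceeded the median of all values (3.35), which kept 24176, the 3 of Maoa and Maob included. One limma model (version 3.58.1, R 4.3.3) held the 4 group means of all 12 arrays (eBayes, Benjamini-Hochberg within each comparison, threshold 0.05). The fit was tested on simulated data in which each probe set had the same spread in all 4 groups. The real adult arrays scattered more than the neonatal ones, which that simulation does not cover. A list gene is its probe set with the highest mean. The members and lists were chosen with earlier results of these data known. Named genes were a preset group, up to 5 called genes a list with the smallest p for DN-MCU against WT, up to 3 a direction for age, and the 5 most correlated genes. Prdx3 and Cat beside the adult calls, Nr3c1, and the markers were chosen after their values were seen.

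Same-numbered neonates deviated weakly together (r = 0.133, 0.223 and 0.283), while different-numbered ones gave -0.292 to 0.0902. Same-numbered adults did not (r = -0.381, 0.41 and -0.428), and DN-MCU adult 3 with WT adult 1 gave 0.579. The main fit held no pairing. Neonatal numbers were used as pairs only in an alternative with a block, and their meaning is not labelled. DN-MCU neonate 2 and WT neonate 2 differed in Xist class. Alternatives were groups fitted alone, array weights, replicate blocks, leaving out each array, another scaling (quantiles or array medians), and a stricter filter or none. The neonatal block and leaving out 2 adult arrays together were added after seeing the data. P-values measure only the spread between these arrays, whose number limits the precision.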

Additional observations from a re-analysis of the deposited data

Results flagged for a closer look

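For 3 genes of the lists the DN-MCU effect differed between adults and neonates by the interaction term of the limma fit, each higher in the adult contrast. The adult effect exceeded the neonatal one by 2.46 for Comtd1, by 2.49 for Aldh18a1 and by 1.41 for Srxn1 on the log2 scale. None of the 3 passed with the neonatal replicate block.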

How the results depend on the processing

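The 1152 probe sets called between DN-MCU and WT adults became 112 with adults fitted alone, 2036 with array weights (0.0728 for DN-MCU adult 3), 3140 without DN-MCU adult 3 and WT adult 1, and 619 to 2214 with any 1 array left out. The 4 neonatal calls became 2 with quantile normalization, 1 with array medians subtracted, 2 with the stricter filter, 1 with neonates alone, 95 with array weights, 1 without those 2 arrays and 0 to 12 with 1 array left out. The 190 calls for the difference of effects became 1216 with array weights, 1112 without the 2 arrays and 70 to 636 with 1 left out. The age calls in WT became 6650 with the stricter filter, which tests fewer probe sets, and 8826 to 13718 with 1 array left out. With a replicate block within each age the adult count was 568, the neonatal 0 and that of the difference 39. With the replicate block of the neonates only they were 636, 0 and 71. The 14 list genes called in adults became 1 with adults alone, 8 and 9 with the blocks, 24 without the 2 arrays and 9 to 18 with 1 left out, and the 3 called for the difference became 0 with no filter and with either block, 9 with array weights, 11 without the 2 arrays and 0 to 5 with 1 left out. The 67 called with age ranged from 57 to 84 with 1 left out. For these counts the cause was not tested.

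With 1 array left out, Maoa 1428667_at ranged from 2.30 to 3.33 in adults, from -0.26 to -0.08 in neonates, from 2.46 to 3.496 for the difference of effects, and with age from -0.64 to -0.53 in WT and from 1.88 to 2.91 in DN-MCU. Maoa 1442676_at ranged from 1.54 to 3.06, from -0.18 to 0.065, from 1.57 to 3.10, from -1.47 to -1.09 and from 0.33 to 1.85 in the same order. Its neonatal difference turned positive with array weights (0.10) and without DN-MCU neonate 2 (0.0088), DN-MCU neonate 3 (0.065) or WT neonate 2 (0.017). Maob ranged from -2.21 to -1.65, from -0.56 to -0.36, from -1.77 to -1.21, from 3.05 to 3.13 and from 1.32 to 1.88. Subtracting array medians shifts all probe sets by -0.131 with age in WT, and the WT age differences were then -0.71 for Maoa 1428667_at and 2.96 for Maob, against -0.38 and 3.19 with quantile normalization. Dim probe sets near the detection level are measured least well.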
